A study of Mus musculus with 4 samples.

Results

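The genes described here are targets of hypoxia-inducible factor (HIF) and the enzymes and transporters of glycolysis. They were taken from a list of 34 gene symbols, each through the probe set whose platform annotation names that gene alone and, among several such probe sets, the brightest over the arrays. Of these genes 29 passed a filter on low signal and are called the members below, out of 11057 genes of the array that passed it. The filter was the median signal of all probe sets other than array controls, a signal of 55.9. The list was drawn up with low values of these genes in the spironolactone library already known, so their values are given as a description, with no test.

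Gene expression was measured once in each of 4 treatments of mDCT cells, immortalized mouse cells from the distal convoluted tubule (a kidney segment that takes up sodium chloride). All 4 cultures had been transiently transfected with a plasmid for 3xFLAG-tagged human MR (the mineralocorticoid receptor, a nuclear receptor activated by aldosterone) and were kept at 37 °C in air with 5% CO2. The ethanol library came from cells given ethanol for 3 h, the 1 nM and 100 nM libraries from cells given that concentration of aldosterone for 3 h, and the spironolactone library from cells given 5 µM spironolactone, an MR antagonist, 2 h before 100 nM aldosterone for 3 h. The other cultures had ethanol at the earlier step, which came 48 h after transfection. Spironolactone alone was not among the treatments analysed, and the receptor plasmid was given to every culture. With 1 library per treatment no difference can be set against a spread between replicates, and the 6 pairs that can be formed share libraries. "Lower" and "higher" therefore compare libraries, not treatments. In whole-culture RNA, fewer cells expressing a gene and less RNA per cell cannot be told apart.

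HIF is a transcription factor whose alpha subunit is hydroxylated by oxygen-dependent prolyl hydroxylases (the Egln enzymes) and then degraded through the von Hippel-Lindau ligase. When hydroxylation fails, the alpha subunit pairs with Arnt and binds a short core motif near genes for glucose uptake, glycolysis, lactate formation, mitophagy, blood vessel growth and collagen hydroxylation. The alpha subunit is regulated mainly at the level of its protein. In the kidney HIF is known for the control of erythropoietin, and distal nephron cells can make ATP by glycolysis.

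The signals were scaled to a common level before deposit: the trimmed mean was 500.003 in every library and the upper quartiles lay between 419 and 426. The ratio of the 3′ to the 5′ control probe sets, a sign of RNA integrity, ranged from 0.741 to 0.783 for Gapdh and from 1.26 to 1.33 for Actb. Markers of the labelled cell type were weak. Of 9 distal convoluted tubule markers 4 passed the filter (Pvalb, Trpm6, Wnk4 and Kcnj10), and Slc12a3, the defining sodium chloride cotransporter, had signals between 3.93 and 17.2, far below it. The summed signal of the 8 such markers with a probe set was 531, 598, 554 and 434 in ethanol, 1 nM, 100 nM and spironolactone. Of the proximal tubule markers 5 of 6 passed, with sums between 2850 and 3174. Most of these sums came from Aqp1, with signals of 2069, 2247, 2479 and 2133. Lrp2 had a mean signal of 516, and Cubn, Slc5a2 and Slc34a1 had 91.8, 64.7 and 58.2, not far above the filter. Of the epithelial markers 1 of 4 passed (Epcam), with sums of 249.6, 240.8, 266 and 233. Fibroblast markers passed in 0 of 6 cases, with sums of 246, 237, 236 and 146, and leukocyte and endothelial markers in 1 of 4 each, with sums of 107 to 158 and 94.6 to 138. The distal tubule, epithelial and fibroblast sums were lowest in the spironolactone library, as many members were. On the log2 scale Epcam differed by -0.35 there from both ethanol and 100 nM aldosterone. The 4 distal tubule markers above the filter had medians of -0.28 and -0.36 in the same comparisons, and the 5 proximal tubule markers -0.13 and -0.22. The part of these markers in the results was not tested.

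The promoter windows of the members that varied most are shown first, because HIF acts through a motif that can be read in them. The motif searched was ACGTG or GCGTG on either strand, in 300 bases from 250 before to 50 after each RefSeq transcription start (GRCm38.p6). A CACGTG element holds ACGTG on both strands and counts as 2 matches. Capitals mark the matches, and each window is written 5′ to 3′ on the strand of its gene. Where a gene has several windows, the one with the most matches is shown. The first 4 are those of the members with the largest range over the libraries that hold a match. That of Bnip3, the next in order, was added after its values were seen.
Ankrd37: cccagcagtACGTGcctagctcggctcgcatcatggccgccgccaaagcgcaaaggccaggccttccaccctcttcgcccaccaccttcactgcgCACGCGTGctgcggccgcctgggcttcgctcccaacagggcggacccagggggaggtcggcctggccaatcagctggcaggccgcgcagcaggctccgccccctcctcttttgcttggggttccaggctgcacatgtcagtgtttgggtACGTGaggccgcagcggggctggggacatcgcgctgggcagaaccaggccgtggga
Aldoc: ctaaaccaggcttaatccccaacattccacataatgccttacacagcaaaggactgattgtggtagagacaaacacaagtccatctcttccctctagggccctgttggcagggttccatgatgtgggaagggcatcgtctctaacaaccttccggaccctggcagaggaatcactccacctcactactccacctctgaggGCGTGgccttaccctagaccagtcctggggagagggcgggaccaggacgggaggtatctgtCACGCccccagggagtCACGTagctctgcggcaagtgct
Pdk1: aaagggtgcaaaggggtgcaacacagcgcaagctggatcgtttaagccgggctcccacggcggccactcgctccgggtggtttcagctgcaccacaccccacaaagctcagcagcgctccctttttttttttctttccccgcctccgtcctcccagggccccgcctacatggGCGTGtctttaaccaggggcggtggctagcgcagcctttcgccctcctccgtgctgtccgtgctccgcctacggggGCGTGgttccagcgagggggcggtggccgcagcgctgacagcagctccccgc
Pfkfb3: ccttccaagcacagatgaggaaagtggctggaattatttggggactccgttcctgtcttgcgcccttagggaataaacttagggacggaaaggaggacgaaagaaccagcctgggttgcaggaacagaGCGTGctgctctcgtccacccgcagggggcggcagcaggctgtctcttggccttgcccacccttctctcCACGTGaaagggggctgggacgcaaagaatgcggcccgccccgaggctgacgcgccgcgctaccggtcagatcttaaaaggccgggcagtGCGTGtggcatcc
Bnip3: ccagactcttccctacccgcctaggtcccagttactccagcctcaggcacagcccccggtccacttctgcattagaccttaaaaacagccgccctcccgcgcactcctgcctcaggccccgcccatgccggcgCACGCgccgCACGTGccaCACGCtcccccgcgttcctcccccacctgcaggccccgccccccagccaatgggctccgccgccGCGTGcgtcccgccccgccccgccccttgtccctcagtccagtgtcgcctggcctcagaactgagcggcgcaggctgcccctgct

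These windows lie at chr8:45999801-46000100 (minus strand) for Ankrd37, chr11:78322823-78323122 (plus) for Aldoc, chr2:71872974-71873273 (plus) for Pdk1, chr2:11502041-11502340 (minus) for Pfkfb3 and chr7:138909457-138909756 (minus) for Bnip3. They hold 4, 3, 2, 4 and 5 matches in that order. A CACGTG element, at which other factors bind too, is present in those of Pfkfb3 and Bnip3. Of the 34 listed genes 32 had a window in the table, and 30 of these (93.8%) had a match in at least 1 window, against 46.7% of all 27025 genes there. By window the shares were 78.0% of 50 and 43.8% of 32851. The windows of the listed genes were also richer in G and C, 61.7% against 53.8% on average, and the motif holds CG. The part of base composition was not tested. The list was made of HIF targets and glycolysis genes, so nothing about these libraries is read from the motif shares. Gpi1 and Tpi1 had windows with no match. Pfkfb3 has 4 matches and, as given below, its signal was highest in the spironolactone library.

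**Figure D1:**
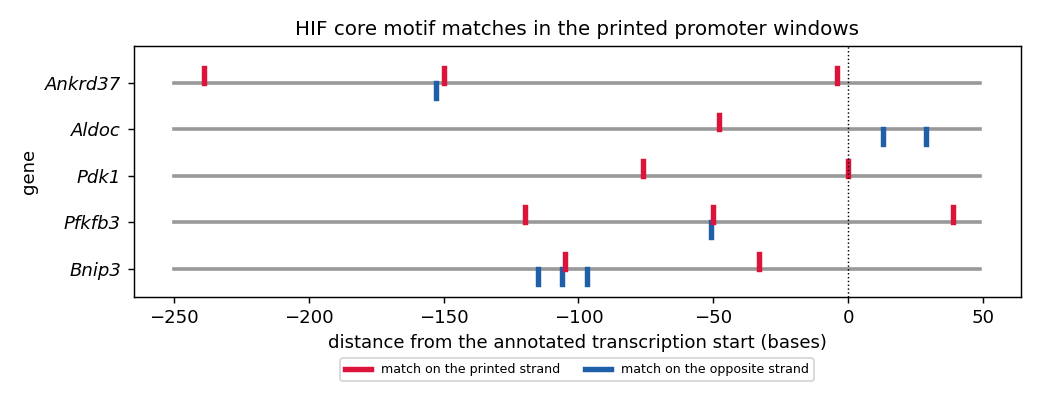
Positions of the motif matches in the 5 printed windows, in bases from the annotated start, with matches on the printed strand above each line and those on the opposite strand below. Bnip3 has 4 of its 5 matches within a short stretch upstream of the start, and Pdk1 has 2 matches, both on the printed strand.

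Most members had their lowest signal in the spironolactone library. Of the 29 members 20 had their lowest signal of the 4 libraries there, where 25.0% of all genes that passed the filter did, and 14 had their highest signal with 100 nM aldosterone, where 25.5% of all genes did. Among genes above the 75th percentile of signal (419.8), called bright, 16 of 23 members were lowest with spironolactone, against a background of 22.9%. Since the list was chosen with these values in view, nothing is read from the shares. Most of the differences were small: 6 members had a range over the libraries of at least 0.32 on the log2 scale, a signal ratio of 5 to 4, where 32.5% of all genes did. These were Ankrd37, Aldoc, Pdk1, Pfkfb3, Bnip3 and Adm.

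**Figure D2:**
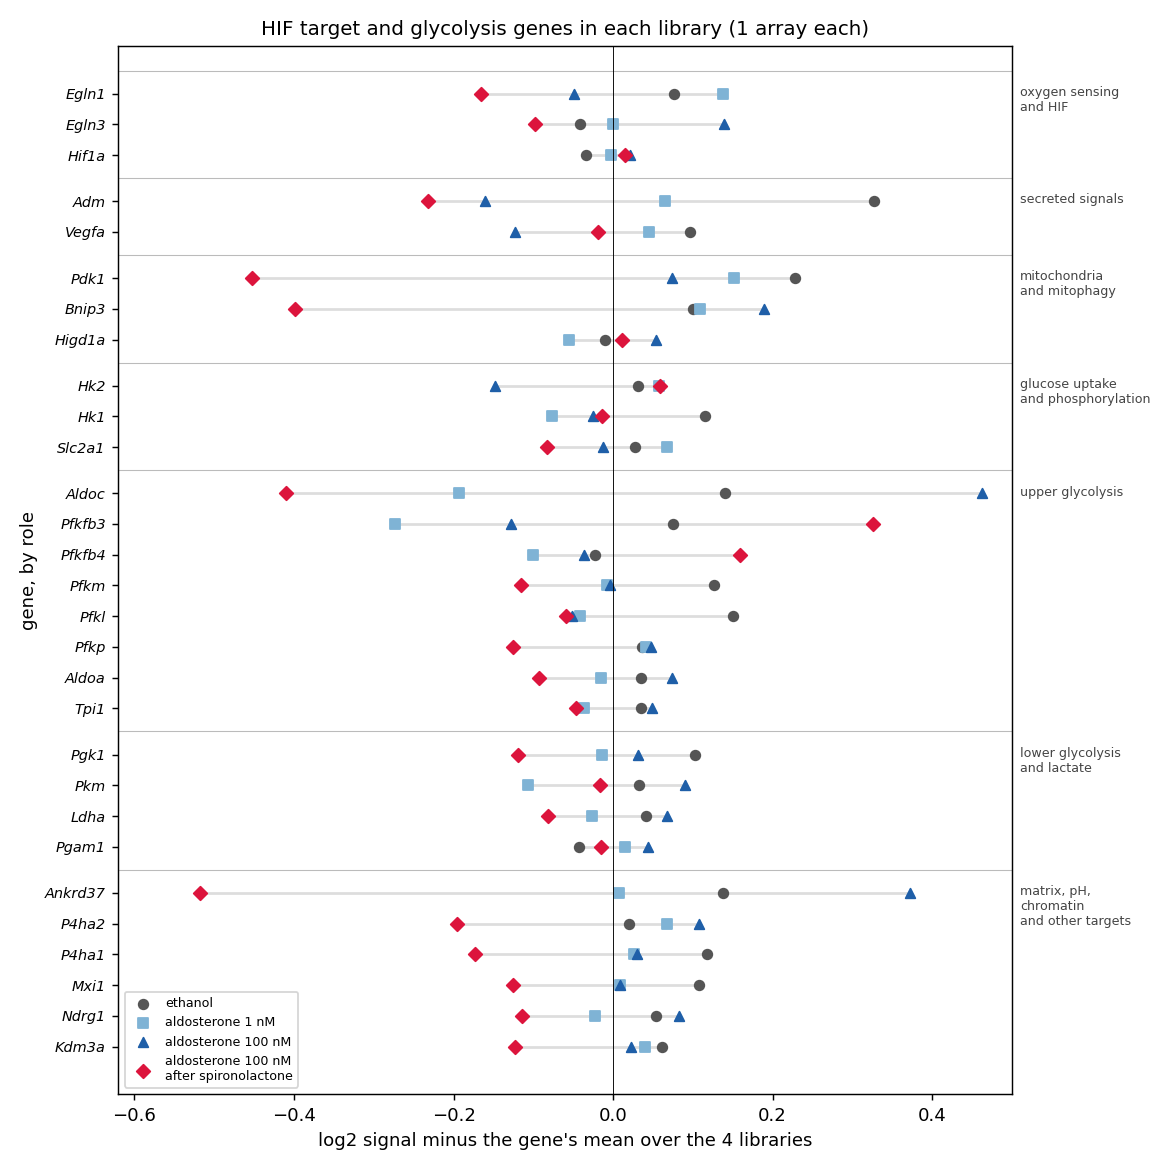
Each row is 1 member, grouped by role, and each symbol is 1 library. The horizontal axis is the log2 signal minus the gene's mean over the 4 libraries. The spironolactone symbol is leftmost in 20 of 29 rows, and lies well apart from the others for Pdk1, Ankrd37 and Bnip3.

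Against ethanol, the spironolactone library was lower in 23 of 29 members, with a median log2 difference of -0.16; over all genes 51.8% were lower and the median was -0.01. By at least 0.32 on that scale 5 members were lower (Pdk1, Ankrd37, Adm, Aldoc and Bnip3) and 0 higher. Of all genes 7.42% were lower and 6.19% higher by that much. Bnip3 was the 1 bright member among the 5, where 1.86% of all bright genes were that much lower. The 4 others were less bright (above the filter but not bright), and of all such genes 16.8% were that much lower. By at least 1.5-fold 2 members were lower, Pdk1 and Ankrd37, against 2.03% of all genes and 5.14% of less bright genes. Against 100 nM aldosterone alone, the library that differs only in the antagonist, 24 members were lower, with a median of -0.12, beside 50.7% and a median of -0.003 over all genes. By at least 0.32, 4 were lower (Ankrd37, Aldoc, Bnip3 and Pdk1), where 8.13% of all genes and 18.4% of less bright genes were. By that much 1 was higher (Pfkfb3), beside 6.49% of all genes. At 1.5-fold 3 were lower (Ankrd37, Aldoc and Bnip3), where 2.51% of all genes, 6.31% of less bright genes and 0.245% of bright genes were. Against 1 nM aldosterone 22 members were lower, with a median of -0.10 (background 49.3%). By at least 0.32, 3 were lower (Pdk1, Ankrd37 and Bnip3), where 7.60% of all genes and 18.2% of less bright genes were. In that comparison 1 member was higher by at least 0.32, Pfkfb3 at 0.60, where 5.79% of all genes were. At 1.5-fold 1 member was lower (Pdk1, -0.60) and 1 higher (Pfkfb3), where 2.66% and 1.75% of all genes were. These 3 comparisons share the spironolactone library.

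Pdk1 encodes a mitochondrial kinase that inactivates pyruvate dehydrogenase and so keeps pyruvate from the citric acid cycle. Its signals were 383 in the ethanol library, 363 in the 1 nM library, 344 in the 100 nM library and 239 in the spironolactone library. The spironolactone library lay below the 3 others, by -0.68 against ethanol and -0.53 against 100 nM aldosterone on the log2 scale. A second probe set gave 374, 370, 371 and 212, and another 129, 201, 153 and 85.4. Spironolactone was lowest in all 3 probe sets above the filter, with differences from 100 nM aldosterone of -0.81 and -0.84 in these. The order of the other libraries differed between the probe sets. The remaining Pdk1 probe set, with signals from 1.01 to 16.4, lay below the filter.

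Bnip3 encodes a receptor on the outer mitochondrial membrane that marks mitochondria for removal by autophagy. It had signals of 3694, 3718, 3932 and 2615 in the same order, and 1 probe set. The first 3 libraries spanned 0.09 on the log2 scale, and spironolactone lay 0.50 below the lowest of them (-0.50 from ethanol and -0.59 from 100 nM aldosterone). Of all 6936 bright genes 9 were lower with spironolactone by at least 0.32 than in each of the other 3 libraries, or 0.130%, and Bnip3 is 1 of them. Pdk1 and Ankrd37 met the same rule among the less bright genes, of which 5.75% did. The list was chosen with low spironolactone values in view, so nothing is read from these shares. Higd1a, a small protein of the inner mitochondrial membrane that supports respiration under low oxygen, had signals of 5714, 5541, 5973 and 5803, a range of 0.11. Its dimmer probe sets differed by -0.31 and -0.79 between spironolactone and ethanol, so the direction depends on the probe set. Bnip3l, the relative of Bnip3, entered no comparison: its 3 probe sets are annotated to the gene and a pseudogene together.

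Ankrd37, a small ankyrin repeat protein and a direct HIF target, had signals of 362, 330, 425 and 229 in 1 probe set. Its difference between spironolactone and 100 nM aldosterone, -0.89, was the largest of any member, and against ethanol it was -0.66. Spironolactone lay 0.53 below the next library, while the other 3 spanned 0.37, with 100 nM aldosterone on top. The other targets with roles in matrix, pH, chromatin and stress were lower with spironolactone by less. P4ha1, a catalytic subunit of the prolyl hydroxylase that modifies collagen, had signals of 2366, 2221, 2226 and 1934, and its second probe set 491, 467, 445 and 391. Spironolactone was lowest in both, by -0.29 and -0.33 against ethanol. P4ha2, the alternative catalytic subunit, had 1508, 1558, 1603 and 1299. In P4ha1 and P4ha2 the gap to the next library, 0.20 and 0.22, was larger than the span of the other 3 (0.09 in each).

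Kdm3a, a histone demethylase that itself needs oxygen, had signals of 1624, 1600, 1581 and 1430, and the span of the 3 libraries without spironolactone was 0.04 against a gap of 0.14. Mxi1, an antagonist of Myc at its binding sites, had 1255, 1172, 1173 and 1069. In its second probe set 1 nM aldosterone was lowest, with 278, 180, 208 and 204. Ndrg1, a stress-responsive protein, was lower with spironolactone than with 100 nM aldosterone in each of its 5 probe sets, by -0.20 in the brightest and by as much as -0.40 in others. Against ethanol its 5 probe sets differed by -0.09 to -0.25. All 6 members of this group that passed the filter were lower with spironolactone than in each of the other libraries, by their brightest probe sets. Car9, a carbonic anhydrase and a standard hypoxia marker, did not pass: its signals were 3.39, 5.08, 23.4 and 10.3 (geometric mean 8.02), where the nearest member above the filter, Pfkfb3, had a geometric mean of 67.2.

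**Figure D3:**
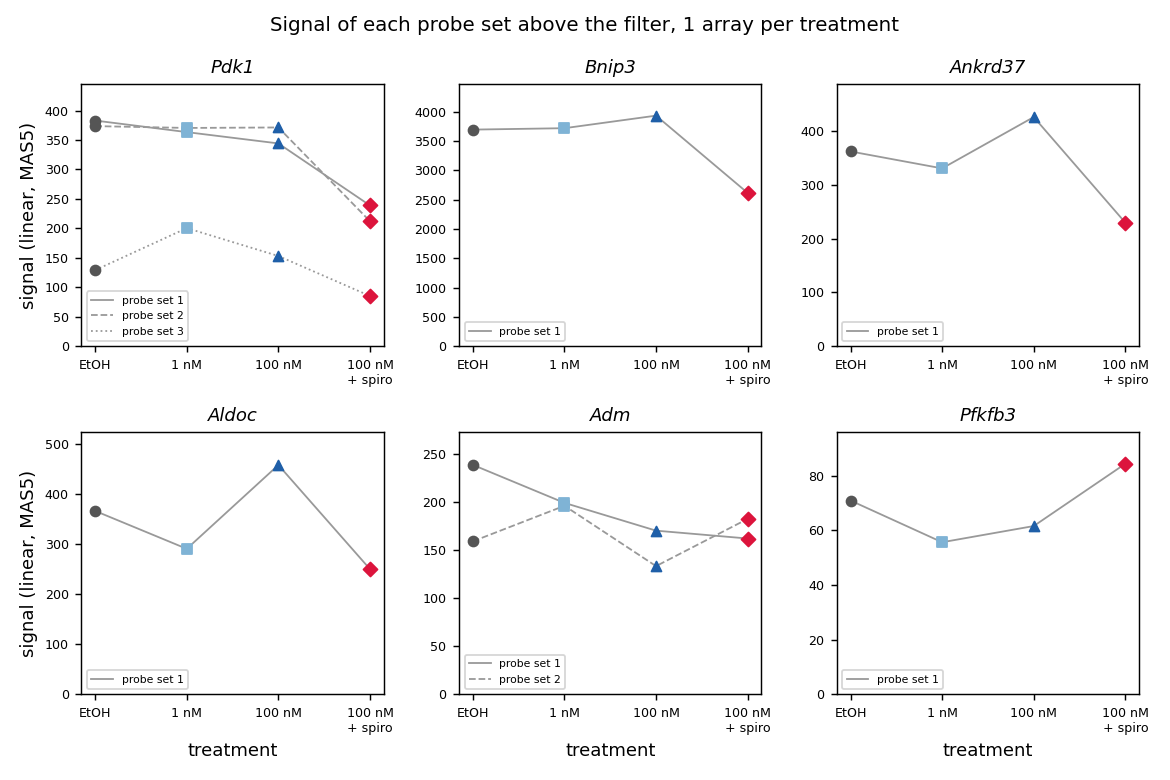
Linear signals of the 6 members with the largest range, each line 1 probe set above the filter and each symbol 1 library; the vertical axes start at 0. All 3 Pdk1 probe sets, and those of Bnip3, Ankrd37 and Aldoc, are lowest with spironolactone, while the 2 Adm probe sets give different orders and Pfkfb3 is highest there.

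In the oxygen-sensing group, Hif1a itself, the alpha subunit, had signals of 7444, 7607, 7732 and 7700. Its range of 0.05 was the smallest of all members, and spironolactone was not its lowest library. A second Hif1a probe set ran 1149, 1313, 1247 and 1150, with ethanol and spironolactone alike. The dimmest Hif1a probe set above the filter had 111, 92.0, 153 and 98.6, set apart by 100 nM aldosterone. Egln1, the main HIF prolyl hydroxylase and a HIF target in feedback, had signals of 1072, 1118, 983 and 906. In a second probe set it had 342, 338, 359 and 305, so spironolactone was lowest in both. Egln3, the most inducible of these enzymes, had 1454, 1495, 1648 and 1398, a difference of -0.24 from 100 nM aldosterone and -0.06 from ethanol. Its dimmer probe set went the other way against 100 nM aldosterone (0.48), with signals of 189, 113, 123 and 171.

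Of the secreted members, Adm, the vasodilator peptide adrenomedullin, had signals of 238, 199, 170 and 162, highest in ethanol. Its difference from ethanol was -0.49 with 100 nM aldosterone and -0.56 with spironolactone. A second Adm probe set gave 159, 196, 133 and 182 and a difference of 0.20 between spironolactone and ethanol, so the probe sets do not share an order of the libraries. Vegfa, the endothelial growth factor that HIF induces, had 736, 710, 632 and 680, lowest with 100 nM aldosterone. In its second probe set it had 170, 162, 206 and 150, where 100 nM aldosterone was highest.

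Of the genes for glucose entry and trapping, 1 of 3 was lowest with spironolactone. Slc2a1, the glucose transporter GLUT1, had signals of 4161, 4276, 4044 and 3854, and spironolactone was lowest in all 3 of its probe sets, by -0.08 to -0.21 against ethanol. Hexokinase, the first enzyme of glycolysis, was measured through Hk1 and Hk2. Hk1 had 1138, 997, 1033 and 1041, highest in ethanol, and Hk2 had 1675, 1705, 1479 and 1708, lowest with 100 nM aldosterone. Neither hexokinase was lowest with spironolactone.

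In upper glycolysis 6 of 8 members were lower with spironolactone than in ethanol, with a median of -0.15. The phosphofructokinase subunits, which form the committed step, were all lowest with spironolactone. Pfkm, the muscle-type subunit, had signals of 675, 615, 616 and 571. Pfkp, the platelet-type subunit, had 2230, 2239, 2248 and 1994. For Pfkp the 3 libraries without spironolactone spanned 0.01 and the gap to spironolactone was 0.16. Pfkl, the liver-type subunit, had 1117, 977, 971 and 966, with the 3 treated libraries alike and below ethanol. In a second Pfkl probe set, with 527, 456, 461 and 412, spironolactone lay below both doses of aldosterone. Aldoa, the main aldolase, had 11548, 11149, 11857 and 10563. Of its 5 probe sets 4 were lower with spironolactone than with 100 nM aldosterone, and the dimmest differed by 0.04. Aldoc, the brain-type aldolase, varied far more: its signals were 366, 290, 457 and 250, so 1 nM aldosterone and spironolactone lay below ethanol and 100 nM above it. Its second probe set, with signals of 3.02 to 19.1, was below the filter. Tpi1, triose phosphate isomerase, had 16286, 15498, 16452 and 15392, with 1 nM aldosterone and spironolactone alike.

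The members among the bifunctional enzymes that make and break fructose 2,6-bisphosphate, the activator of phosphofructokinase, went the other way. Pfkfb3 had signals of 70.9, 55.6, 61.5 and 84.3, and Pfkfb4 had 238, 226, 236 and 270. Spironolactone was highest for both, by 0.25 and 0.18 against ethanol. Pfkfb3 lay near the filter, and its second probe set, below the filter, differed by -0.12 from ethanol. Pfkfb2, another such enzyme that is not a member, differed by -0.10 from ethanol and 0.11 from 100 nM aldosterone.

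In lower glycolysis, Pgk1, which forms the first ATP of the pathway, had signals of 18883, 17407, 17964 and 16182, a difference of -0.22 from ethanol. Its other probe sets differed by -0.13 and -0.05. Pgam1, phosphoglycerate mutase, had 12010, 12503, 12757 and 12245, lowest in ethanol. Pkm, pyruvate kinase and the last enzyme of the chain, had 5752, 5224, 5991 and 5563, lowest with 1 nM aldosterone. Ldha, which turns pyruvate to lactate, had 17058, 16274, 17367 and 15666, lowest with spironolactone by -0.05 from 1 nM aldosterone and by -0.15 from 100 nM. All 4 were lower with spironolactone than with 100 nM aldosterone, by -0.06 to -0.15. Gapdh entered no comparison, since its probe sets are annotated to several genes, but the array's own Gapdh controls differed by -0.06 to -0.09 between spironolactone and ethanol and by -0.06 to 0.02 between spironolactone and 100 nM aldosterone. Gpi1 and Eno1 had no probe set annotated to that symbol. Many glycolytic enzymes have near-identical pseudogene copies, so part of a signal may come from them. The brightest probe sets of Aldoa, Pgk1, Tpi1, Ndrg1 and Adm are also of a kind that the array design marks as able to match other transcripts.

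Over the 13 members of the chain from glucose transport to lactate, the median difference between spironolactone and ethanol was -0.13, with 11 lower and 1 lower by at least 0.32 (Aldoc). Over the 16 other members it was -0.20, with 12 lower and 4 lower by that much. The difference between these groups was not tested. Bright members had a median of -0.13, against -0.002 for all bright genes.

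**Figure D4:**
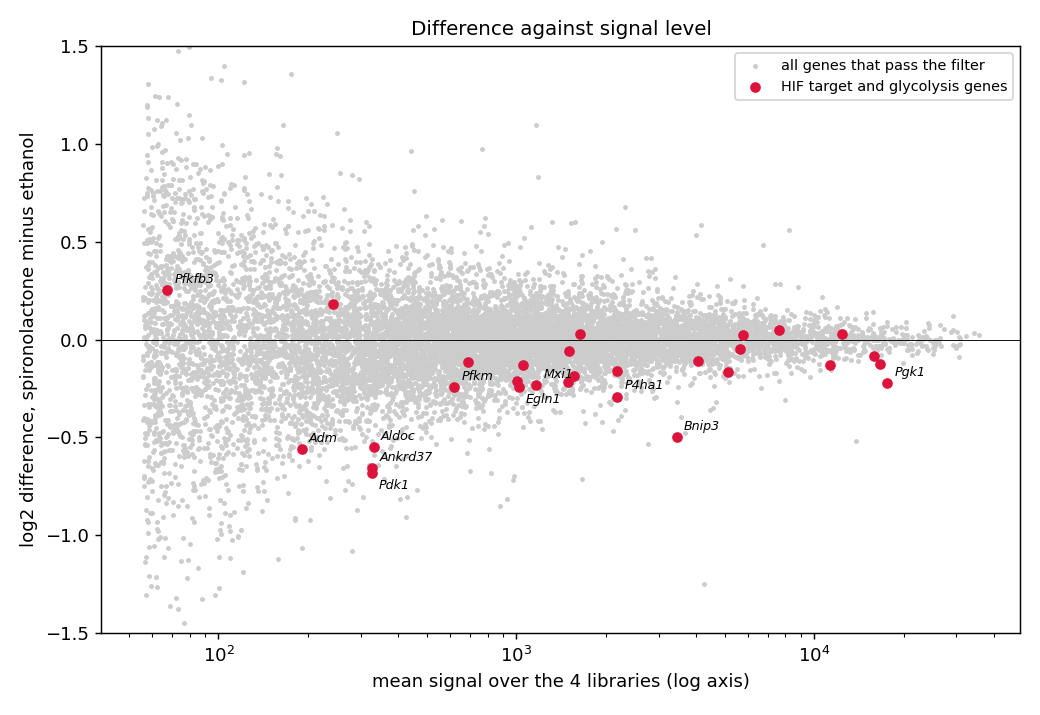
Each point is 1 gene, with its mean signal over the libraries on a log axis and its log2 difference between spironolactone and ethanol on the vertical axis; 28 genes lie outside the plotted range. Of the 29 members 23 lie below 0, Bnip3 lies lowest among the bright ones at -0.50, and Adm, Aldoc, Ankrd37 and Pdk1 lie at lower signals, where genes spread more widely.

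Other probe sets of the members were read from the same libraries. Of the 30 further probe sets above the filter 28 were lower with spironolactone than in ethanol, with a median of -0.20, and 27 were below the 100 nM library (median -0.17). Of all 8861 further probe sets on the array the shares were 52.3% and 51.2%. Spironolactone was the lowest library in 21 of the 30, and the share over all further probe sets was not computed. The 30 belong to 16 members, so some genes count more than once. These probe sets measure the same RNA, so they bear on the probes and not on the variation between cultures.

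Without spironolactone, the members divided about evenly between 100 nM aldosterone and ethanol, and less evenly in the comparisons with 1 nM aldosterone. With 100 nM aldosterone 15 of 29 members were lower than in ethanol (background 51.3%), and the median was -0.01 (0.0100 with quantile normalization). By at least 0.32, 1 was lower (Adm, background 6.48%) and 1 higher (Aldoc at 0.32, background 7.07%). With 1 nM aldosterone 20 were lower (background 51.7%), with a median of -0.07, and 2 by at least 0.32 (Pfkfb3 and Aldoc; background 7.00%). Between the doses 8 members were lower with 100 nM than with 1 nM aldosterone (background 48.7%), the median was 0.04, and 2 were higher by at least 0.32 (Aldoc and Ankrd37; background 6.57%). With each array centred on its own median, 12 members were lower with 100 nM than with 1 nM, a share of 41.4% in place of 27.6%. Ethanol is shared by the first pair of comparisons, and each dose is shared with the third.

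Other genes of the pathway came from lists written with earlier results of these data known, so they are no independent evidence. Of 35 other HIF targets 28 passed the filter, and 23 of them were lower with spironolactone than in ethanol, with a median of -0.19, and 24 were below the 100 nM library (median -0.14), beside 51.8% and 50.7% of all genes. By at least 0.32, 7 were lower than ethanol and 3 higher, where 7.42% and 6.19% of all genes were. Spironolactone was the lowest library for 19 of the 28, against 25.0% of all genes. The 28 include Loxl3, a different gene that stood in for the listed Loxl2 through a synonym. Its signals were 155, 137, 142 and 113, so it is counted as lower and as lowest with spironolactone. It is also counted among the 7, at -0.45 from ethanol. The 4 that varied most did not share a direction. Eno2, a second enolase, had signals of 314, 219, 256 and 179, lowest with spironolactone. Angptl4, an inhibitor of lipoprotein lipase, had 77.3, 66.3, 80.0 and 117, highest there. Stc1, the hormone stanniocalcin, had 60.5, 88.2, 55.7 and 53.8, set apart by 1 nM aldosterone. Car12, a membrane carbonic anhydrase, had 326, 464, 488 and 443, set apart by ethanol.

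The HIF subunits and regulators were spread around no difference. Of these 15 genes, all above the filter, 9 were lower with spironolactone than in ethanol and 7 lower than with 100 nM aldosterone. The medians were -0.01 and 0.01, and spironolactone was the lowest library for 2. Over all genes the shares were 51.8%, 50.7% and 25.0% in that order. Arnt, the partner of the alpha subunit, had signals of 2125, 1678, 1958 and 1634, low with 1 nM aldosterone and with spironolactone, by -0.38 from ethanol in the latter. Hif3a, an alpha subunit that can inhibit HIF, had 154, 267, 138 and 150, set apart by 1 nM aldosterone. Rbx1, a subunit of the ubiquitin ligase, had 97.5, 61.4, 102 and 88.1. Os9, a lectin of endoplasmic reticulum quality control, had 724, 758, 874 and 730, highest with 100 nM aldosterone.

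Of the genes for routes that branch from glycolysis, 1 of 10 pyruvate dehydrogenase genes (Pdp2) and 0 of 7 pentose phosphate genes were lowest with spironolactone. The share of all genes lowest there was 25.0%. Of the subunits and regulators of pyruvate dehydrogenase, the complex on which Pdk1 acts, 10 of 12 passed. These had a median of 0.03 against ethanol and 0.0003 against 100 nM aldosterone, and 4 were lower than ethanol, beside 51.8% of all genes. Pdp1, the phosphatase that opposes Pdk1, had signals of 287, 230, 207 and 286, alike in ethanol and spironolactone and lower with aldosterone alone, while Pdp2, a second such phosphatase, had 379, 334, 352 and 322. The acetyltransferase Dlat had 1951, 2243, 2204 and 2134, and Pdhx 720, 819, 813 and 737. Of the 7 pentose phosphate genes above the filter 1 was lower than ethanol (Pgls), beside 51.8% of all genes. The median of the 7 was 0.03. Pgls, the lactonase, had signals of 1773, 1975, 1614 and 1712. H6pd, the microsomal dehydrogenase, had 337, 414, 403 and 365, lowest in ethanol. The other two named by range, Taldo1 and Tkt, differed from ethanol by 0.02 and 0.01.

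Of 15 other glycolysis and lactate genes 8 passed, and 1 of these was lower with spironolactone than in ethanol (Pfkfb2), beside 51.8% of all genes. The median of the 8 was 0.06. Bpgm, which makes 2,3-bisphosphoglycerate, had signals of 606, 870, 843 and 607, alike in ethanol and spironolactone and higher with both doses of aldosterone alone. Ldhb, the other lactate dehydrogenase subunit, had 748, 851, 1000 and 868, and Adpgk, an ADP-dependent glucokinase, 201, 199, 139 and 246. Hk3 had 63.5, 83.7, 80.1 and 80.7, near the filter. Of the gluconeogenesis genes 3 of 6 passed. Fbp2, a fructose bisphosphatase, had 132, 142, 127 and 108, lowest with spironolactone. Pcx, pyruvate carboxylase, had 305, 337, 333 and 358, highest there. Pck2, the mitochondrial carboxykinase, differed from ethanol by -0.001. These 3 had a median of -0.12 against 100 nM aldosterone. The 9 housekeeping genes had medians of -0.03 and 0.01 and ranges over the libraries of at most 0.15. Spironolactone was lowest for 2 of them, beside 25.0% of all genes.

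**Figure D5:**
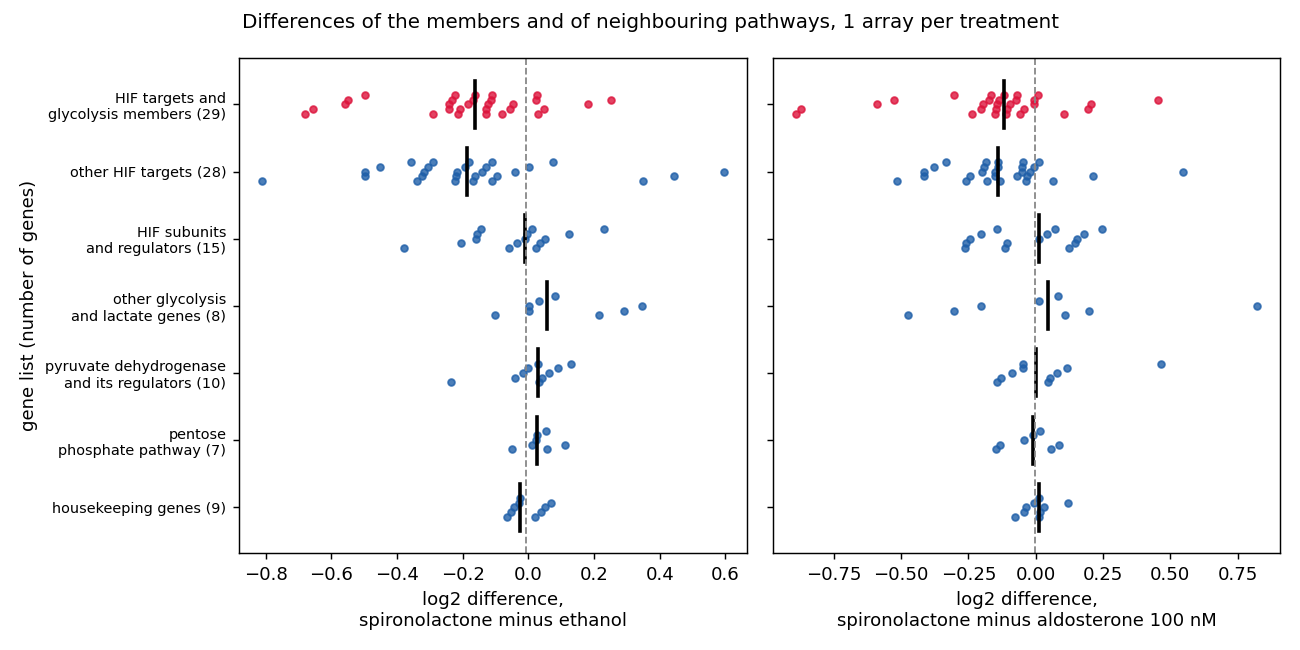
Log2 differences between spironolactone and ethanol (left) and between spironolactone and 100 nM aldosterone (right) for each gene above the filter, by list. Points are genes, black bars are list medians, and the dashed line is the median of all genes. The other HIF targets hold Loxl3 in place of the listed Loxl2. The members (29) and the other HIF targets (28) have medians of -0.16 and -0.19 at left and -0.12 and -0.14 at right, and the other 5 plotted lists have medians between -0.03 and 0.06. Gluconeogenesis (-0.12 at right) and the markers of distal tubule (-0.28 and -0.36) and proximal tubule (-0.13 and -0.22) are not plotted and lie outside that range.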

How the data were processed

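One array was analysed for each of 4 treatments. The authors deposited a linear intensity for each probe set, made by MAS5 according to the submitters' processing notes. Its version, scaling target and detection calls were not stated in these sources. Gene names came from the platform annotation: of 45037 probe sets other than the 64 controls, 34945 had 1 symbol, 932 several and 9160 were not listed. Of 18193 genes, 11057 passed the filter and 6936 of them were bright. The number of value columns of other samples was 0.

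Differences are of log2 intensity of the deposited values, with no pseudocount and no further scaling. They were computed with Python 3.11.15, numpy 2.4.6 and pandas 2.3.3 by a procedure tested on simulated data. The simulated shift was larger than any member's difference by its brightest probe set, so that test does not cover differences as small as these. The number of arrays limits the precision, and no p-value or error is given. The members, lists and thresholds (log2 differences of 0.32 and 0.58) were chosen with earlier results of these data known. All members are named, the rule asking for every signal of the 12 with the largest range, and the 4 of each other list with the largest range. The 7 alternatives were quantile normalization, median centring, the median over probe sets, the second brightest probe set, no filter, a filter at the 75th percentile and a pseudocount of 32.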

Additional observations from a re-analysis of the deposited data

How the results depend on the processing

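Under the 7 alternatives the members' medians for the 3 comparisons of spironolactone kept their sign and stayed within 1.5 times the reported value: from -0.13 to -0.20 against ethanol, -0.11 to -0.14 against 100 nM aldosterone and -0.09 to -0.12 against 1 nM. The count of members lowest with spironolactone was 19 or 20 of 29 with both rescalings, the median over probe sets and the pseudocount, 20 of 30 without the filter, 16 of 23 with the stricter filter and 12 of 16 with the second brightest probe set; in the last pair fewer genes entered. The median for 100 nM aldosterone against ethanol was not stable in sign: it was 0.0100 with quantile normalization, 0.0116 with the stricter filter, -0.00022 with median centring, -0.028 with the median over probe sets, -0.080 with the second brightest probe set and -0.0015 without the filter. The median for 1 nM aldosterone against ethanol was -0.044 with median centring, and that between the doses 0.025 with the second brightest probe set. The causes of these shifts were not tested.

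Of 76 values under the alternatives for members' differences past 0.32, 70 stayed within 1.5 times, 5 moved further (2 for Pdk1, 2 for Adm and 1 for Pfkfb3) and 1 reversed, Adm between spironolactone and ethanol (0.20 with its second brightest probe set). Over all 736 gene values under the alternatives, small differences included, 609 were the same, 126 moved and 1 reversed. Differences of less than 0.32 that changed sign were not counted as reversed. With the second brightest probe set Higd1a went from 0.02 to -0.31 between spironolactone and ethanol. Egln3 went from -0.24 to 0.48 between spironolactone and 100 nM aldosterone. Of the 30 further probe sets above the filter 26 had the direction of the brightest in both comparisons. With the second brightest probe set 48 moved and 15 were the same. With the median over probe sets 35 moved and 81 were the same. No paired analysis was possible because each treatment has 1 library. Without replicates no library can be left out, and a library-wide effect in the spironolactone array cannot be told apart from the treatment.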
